A study of Homo sapiens with 60 samples.

Results

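Yijin-tang and Soshiho-tang, 2 herbal decoctions of Korean medicine, were compared at the same dose, 100 µg/mL, in HT29 cells, an established line from a human colorectal adenocarcinoma. By the labels both were water extracts, given for 24 h. Both groups carry the number 8 at the head of their library names, called library set 8 here. By tradition Soshiho-tang is built on Bupleurum root, Scutellaria root and ginseng, and Yijin-tang on citrus peel and Poria, and they share Pinellia, ginger and licorice. The comparison holds 5 of the 60 libraries of the series: 3 of Yijin-tang (replicates 1 to 3) and 2 of Soshiho-tang (replicates 2 and 3). No Soshiho-tang replicate 1 is among the 60. Besides them, the vehicle (DMSO, n = 3, library set C1) and the same decoctions at 20 µg/mL (low dose) and 500 µg/mL (high dose) were used. The sample labels give 0.1% DMSO for the vehicle, and the series text another percentage. HT29 is a single tumour line. The titles place every library of the series in the same batch, C, and do not say what the number heading a library name marks. Nothing in the labels says that the replicates were separate cultures, so p-values here measure only the spread between the libraries fitted.

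The 5 libraries held 20299944 to 28443754 counts. The 14 markers of colon epithelium each passed 1 CPM (the count scaled to the library's total) in at least 1 of them, with the adhesion molecule gene EPCAM at 468.8 to 500.4 CPM and the intestinal keratin gene KRT20 at 223.9 to 238.8 CPM. The intestinal factor genes CDX2 (3.86 to 4.72 CPM) and CDX1 (0.640 to 1.15 CPM) were low. Of the defining markers of other cell types, 5 of 8 erythroid and 6 of 15 leukocyte genes were at 0 in all 5 libraries, and the summed erythroid markers reached at most 0.2956 CPM. The summed leukocyte markers (1341 to 1406 CPM with Yijin-tang, 1368 to 1465 CPM with Soshiho-tang) were almost wholly lysozyme, LYZ. Hepatocyte markers summed to 320.6 to 338.3 CPM with Yijin-tang and 315.3 to 323.2 CPM with Soshiho-tang, almost wholly SERPINA1. Fibroblast and endothelial markers summed to at most 3.516 and 2.664 CPM. Yijin-tang medium dose replicate 3 stood apart: processed pseudogenes took 0.303% of its counts, against 0.193 to 0.204% in the other 4. Over genes of at least 5 CPM, its log2 ratios to replicates 1 and 2 had an SD of 0.1398 and 0.1495. Between replicates 1 and 2 the SD was 0.1049. Outside the medium dose, 2 libraries stand apart from their groups and were left out of the 52 libraries fitted together. They are labelled replicate 2 of Yijin-tang at low dose and replicate 3 of Soshiho-tang at high dose. In the former, ribosomal protein genes took 11.1% of counts, against 5.21 and 4.88% in its group. In the latter, erythroid markers summed to 9.55 CPM, against 0.179 CPM. They were left out with earlier results of these data known. The estimated spread between replicates (biological coefficient of variation) was 4.76% in that fit and 9.71% with all 54 libraries of groups with replicates.

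The aryl hydrocarbon receptor (AHR) is a transcription factor switched on by small planar molecules, among them many plant compounds, and in the gut it is known for its part in barrier upkeep and in the response to diet. Without a ligand it rests in the cytosol with the chaperone HSP90 and the cochaperone p23. With a ligand it enters the nucleus, pairs with ARNT and binds elements with the core GCGTG, from which genes of foreign compound metabolism such as CYP1A1 are transcribed. TIPARP and AHRR, themselves targets, restrain the receptor.

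Between the 2 decoctions at medium dose, the genes called were all on the list of AHR targets, and all of them were lower with Yijin-tang. That list was drawn up with earlier results of these data known, so the match is a description. The cytochrome P450 gene CYP1A1 fell by 2.02 ± 0.17 on the log2 scale (± SE, adjusted p = 3.15e-11), its relative CYP1B1 by 0.85 ± 0.05 (adjusted p = 6.90e-16), the retinaldehyde dehydrogenase gene ALDH1A3 by 0.48 ± 0.06 (adjusted p = 1.38e-06) and TIPARP by 0.33 ± 0.05 (adjusted p = 0.000278). These 4 were the only genes called among 17330 tested (0.0231%) by edgeR's quasi-likelihood test with Benjamini-Hochberg adjustment at 0.05, in the fit of 52 libraries. No gene was called higher with Yijin-tang, where 427 genes (2.46%) had an unadjusted p under 0.05, against 337 (1.94%) lower. TIPARP was not called when the fit held all 54 libraries of groups with replicates (adjusted p = 1), where its estimate was -0.33 as well. DESeq2 called the same 4 genes and, higher with Yijin-tang, the readthrough gene INO80B-WBP1.

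The promoters of 3 of the 4 are shown, since the receptor's core element is what a reader would look for in them. They are the 250 bases before the start of transcription, from RefSeq on GRCh38.p14, on the gene's strand from 5′ to 3′, and capitals mark GCGTG or, for the other strand, CACGC. CYP1A1 lies at chr15:74725529-74725778 (minus strand), ALDH1A3 at chr15:100879581-100879830 (plus strand) and the first of 3 listed starts of TIPARP at chr3:156674340-156674589 (plus strand).
CYP1A1: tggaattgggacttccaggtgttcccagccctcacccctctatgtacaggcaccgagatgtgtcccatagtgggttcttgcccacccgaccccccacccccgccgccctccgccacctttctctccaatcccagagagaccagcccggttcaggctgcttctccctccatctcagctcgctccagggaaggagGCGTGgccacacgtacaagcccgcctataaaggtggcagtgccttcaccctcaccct
ALDH1A3: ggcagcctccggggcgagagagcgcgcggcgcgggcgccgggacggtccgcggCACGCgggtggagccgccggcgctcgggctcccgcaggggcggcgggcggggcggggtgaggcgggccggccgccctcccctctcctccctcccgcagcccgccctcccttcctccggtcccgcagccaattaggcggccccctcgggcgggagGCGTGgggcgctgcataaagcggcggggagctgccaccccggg
TIPARP: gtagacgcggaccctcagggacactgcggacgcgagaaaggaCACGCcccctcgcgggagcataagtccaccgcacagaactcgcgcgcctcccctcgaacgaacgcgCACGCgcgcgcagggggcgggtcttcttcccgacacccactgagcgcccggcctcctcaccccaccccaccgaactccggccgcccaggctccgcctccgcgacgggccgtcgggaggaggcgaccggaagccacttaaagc
The CYP1A1 window held 1 core, 57 bases before the RefSeq start, and the windows of ALDH1A3 and of the first TIPARP start held 2 each. At the other 2 TIPARP starts there were 0. Of 35116 promoters of this length 32.2% held the core on either strand, so its presence is common and marks no site of binding. The longer TGCGTG was in 7.97% of promoters and in none of these 5 windows. Sequence further upstream was not searched, and the deposited counts say nothing of binding.

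CYP1A1 (ENSG00000140465, chromosome 15, 74719542 to 74725610 on GRCh38, minus strand) encodes the enzyme that is the usual readout of the receptor. It stood at 1.02, 0.834 and 1.36 CPM in the Yijin-tang libraries and at 4.75 and 4.00 CPM in the Soshiho-tang libraries. The groups lay far apart for their spread: the 6 log2 ratios of a Yijin-tang to a Soshiho-tang library ran from -2.40 to -1.50. In the vehicle it was at 0.476, 0.338 and 0.697 CPM, below every library of either decoction at medium dose. At low dose its values were 0.663 and 0.766 CPM with Yijin-tang and 1.14 and 1.31 CPM with Soshiho-tang. At high dose they were 3.11, 3.10 and 3.59 CPM with Yijin-tang and 164 CPM in the Soshiho-tang library fitted, and 171.8 CPM in the one left out. Among the libraries given here, every Soshiho-tang library was above every Yijin-tang library of the same dose. Yijin-tang low dose replicate 2, left out of the fit, is not among them.

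CYP1B1 (ENSG00000138061, chromosome 2, 38066973 to 38109902, minus strand) encodes an enzyme that oxidises estrogens and polycyclic hydrocarbons. Its Yijin-tang libraries were at 57.1, 60.7 and 59.9 CPM, and its Soshiho-tang libraries at 104.9 and 108.2 CPM. The vehicle libraries, at 46.2, 48.4 and 45.9 CPM, were lower than all 5. Of the 4 genes it had the smallest adjusted p, with log2 ratios of -0.92 to -0.79 over the library pairs.

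ALDH1A3 (ENSG00000184254, chromosome 15, 100877714 to 100916626, plus strand) makes retinoic acid from retinaldehyde. Yijin-tang gave 31.0, 31.3 and 33.9 CPM and Soshiho-tang 45.6 and 43.8 CPM, with the vehicle at 25.3, 25.1 and 22.3 CPM. Here too the 3 groups did not overlap, with the vehicle lowest and Soshiho-tang highest. TIPARP (ENSG00000163659, chromosome 3, 156673235 to 156706770, plus strand), an ADP-ribosyltransferase that acts on the receptor, had the smallest difference and the closest replicates. It was at 88.0, 86.6 and 86.6 CPM with Yijin-tang, at 110.0 and 109.3 CPM with Soshiho-tang and at 76.2, 81.0 and 78.1 CPM in the vehicle.

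**Figure D1:**
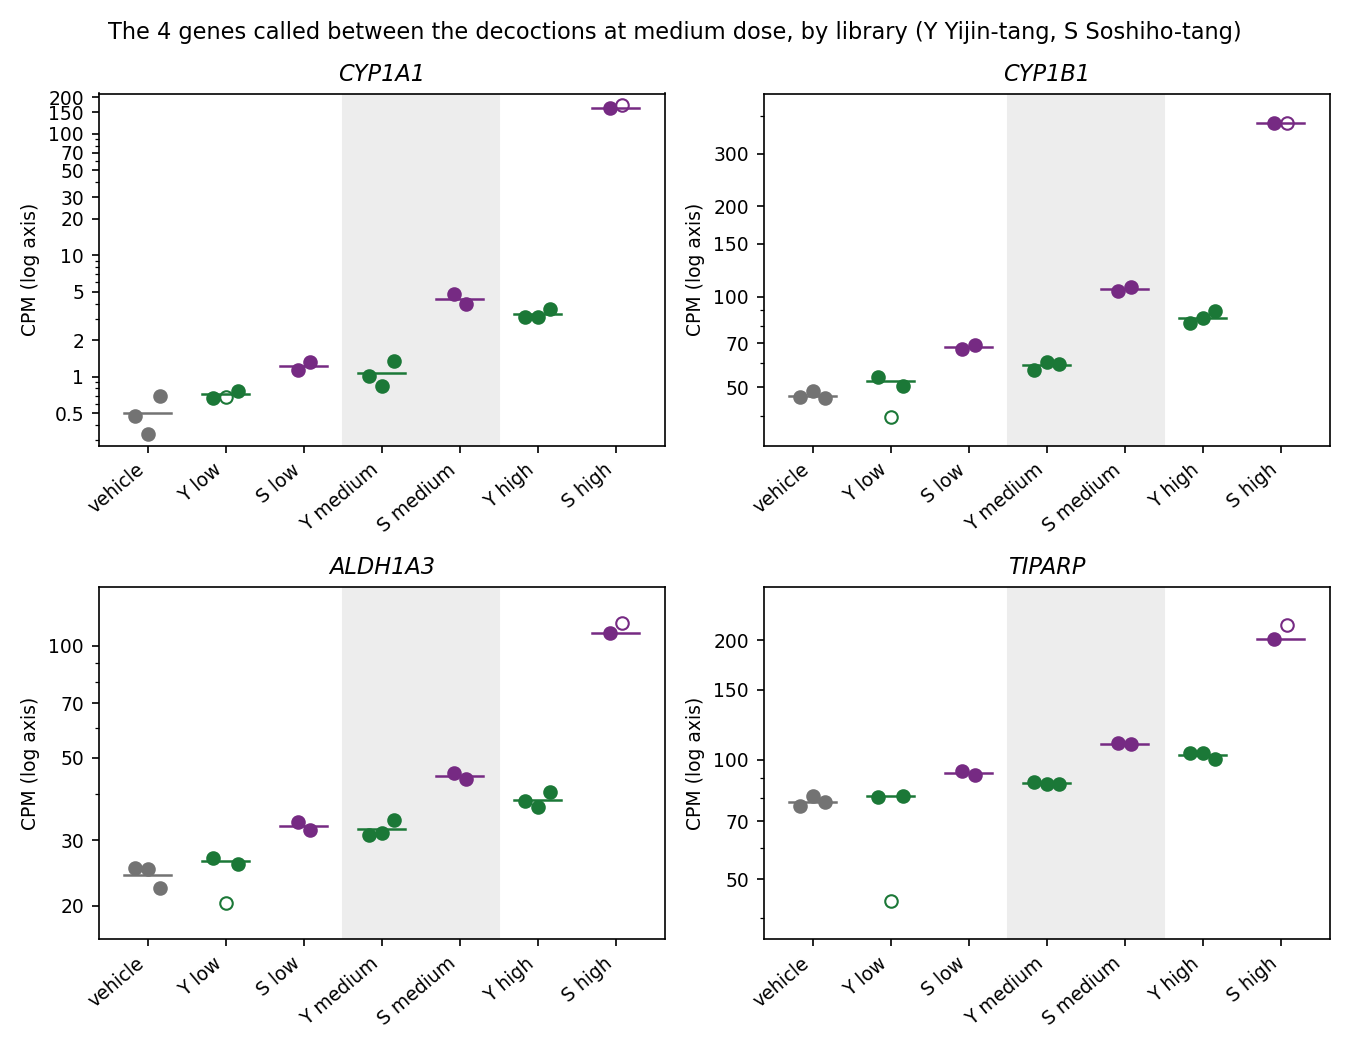
CPM on a log axis for CYP1A1, CYP1B1, ALDH1A3 and TIPARP in each library of the vehicle and of Yijin-tang (Y) and Soshiho-tang (S) at low, medium and high dose; points are libraries, lines are group means of the fitted libraries, and open points are the 2 libraries left out of the fit. In the shaded medium dose panels every Y point lies below every S point and above every vehicle point.

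The AHR target list had 12 genes, of which 10 passed the filter on low counts. CYP1A2 had at most 1 count and LRAT had 0 in each of the 5 libraries, and neither was tested. Of the 10, 4 were called lower and 0 higher, and in 5 all Yijin-tang libraries lay below all Soshiho-tang libraries, which was so for 10.4% of all genes tested. The fifth was ALDH3A1, an aldehyde dehydrogenase, at 27.45, 30.6 and 28.9 CPM against 36.75 and 32.15 CPM. Its difference of -0.25 ± 0.07 did not pass (edgeR adjusted p = 0.675). The vehicle libraries were at 27.1 to 27.7 CPM, with 2 of the 3 Yijin-tang libraries and both Soshiho-tang libraries above them.

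The other 5 tested targets were close to equal in both decoctions. AHRR, the repressor that competes with the receptor for ARNT, was at 7.21 ± 0.266 CPM (SD, n = 3) with Yijin-tang and 7.09 ± 0.726 (n = 2) with Soshiho-tang, a log2 difference of 0.03 ± 0.11. For NQO1, a quinone reductase, and SLC7A5, a carrier of large neutral amino acids, the log2 differences were 0.01 ± 0.04 and 0.02 ± 0.05. UGT1A6, a glucuronosyltransferase, gave -0.02 ± 0.06, and CYP2S1, another cytochrome P450, -0.07 ± 0.10. The median over the 10 was -0.16, against 0.000873 over all genes tested. Since the lists were drawn up with earlier results of these data known, that median is a description.

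No component of the receptor's machinery passed the test between the decoctions. Of its 11 tested components 0 were called and 0 had an unadjusted p under 0.05, with log2 differences from -0.04 to 0.10. AHR itself was at 120.5, 117.8 and 120.6 CPM with Yijin-tang and 121.0 and 122.6 CPM with Soshiho-tang (-0.03 ± 0.05), and ARNT at 32.5, 32.3 and 31.8 against 34.2 and 31.2 CPM (-0.02 ± 0.07). The chaperone genes HSP90AB1 (0.05 ± 0.04) and HSP90AA1 (0.06 ± 0.07), PTGES3, which encodes p23 (0.07 ± 0.04), and the kinase gene SRC (0.02 ± 0.05) were likewise close. In the fit of 52 libraries the 95% interval of AHR, -0.13 to 0.08, leaves out a difference as large as that of TIPARP. With all 54 libraries the difference of TIPARP was itself not called.

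**Figure D2:**
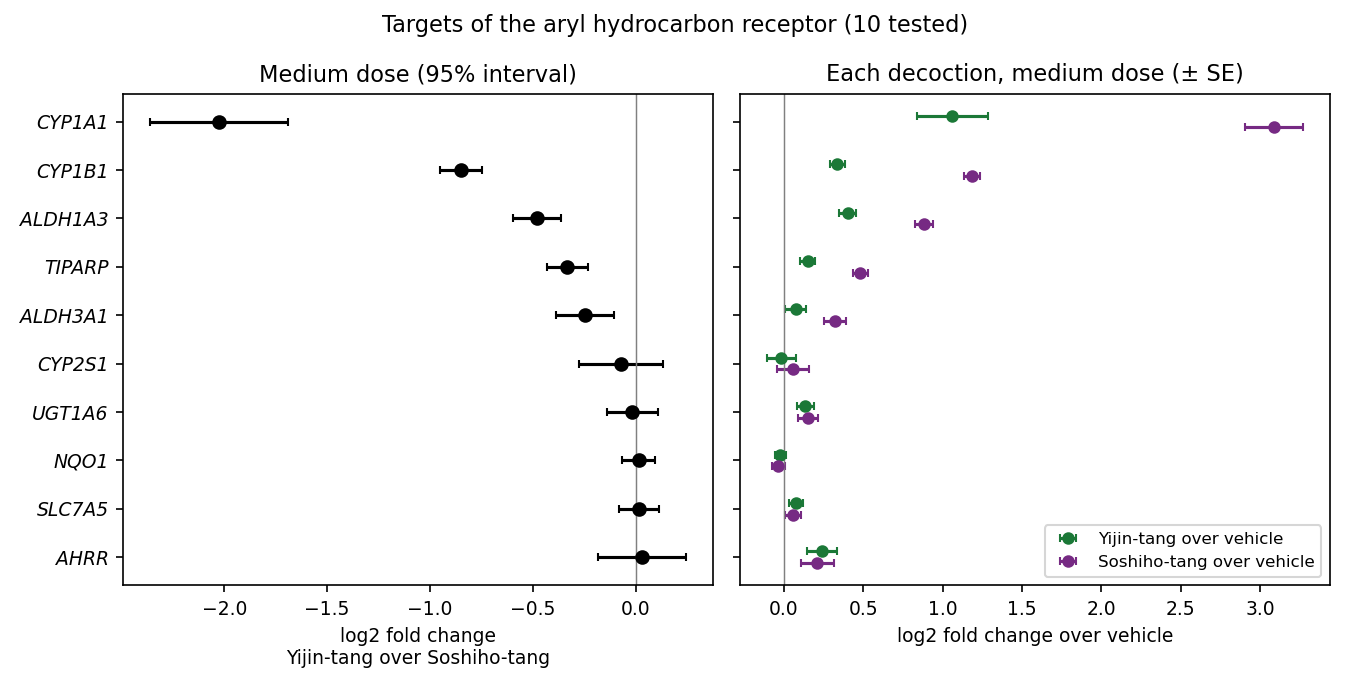
Log2 fold changes of the 10 tested AHR targets at medium dose: left, Yijin-tang over Soshiho-tang with 95% intervals; right, each decoction over the vehicle with standard errors. The upper 4 genes, CYP1A1 to TIPARP, lie left of 0 in the left panel, and AHRR, SLC7A5 and NQO1 sit near 0.

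Apart from these genes the decoctions were close at 100 µg/mL, and the fit of 52 libraries bounds how close. With all 54 libraries the estimated spread was 9.71%, against 4.76%, and such bounds were not computed from that fit. Where the mean reached 5 CPM, for 10594 genes, the median half-width of the 95% interval of the log2 difference was 0.1395, and for 98.8% the whole interval lay within 1.5-fold. Log2 ratios between a Yijin-tang and a Soshiho-tang library had an SD over genes of 0.118 to 0.156, close to the 0.105 to 0.150 between libraries of the same decoction. The top of both ranges came from pairs with Yijin-tang replicate 3. At an unadjusted p under 0.05 there were 764 genes (4.41%). For 21.1% of genes the libraries of the groups did not overlap.

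Estimates past 1.5-fold were few among the genes of at least 5 CPM, with 11, and most were not of protein coding genes. Of them 8 were processed pseudogenes with the highest level in Yijin-tang replicate 3, the library with the high pseudogene share. One is ANXA2P2, at 8.66, 8.62 and 41.2 CPM with Yijin-tang and 9.74 and 9.37 CPM with Soshiho-tang. Another is RPL13AP5, at 20.6, 20.2 and 57.7 against 22.1 and 19.6 CPM. None was called, and such copies share reads with their parent genes. The remaining 3 were CYP1B1, ZNG1F and TUBA1B-AS1, an antisense transcript that ran from 12.4 to 105.7 CPM over the 5 libraries. ZNG1F, a member of a near-identical gene family, was at 3.74 to 3.87 CPM with Yijin-tang and at 5.04 and 13.8 CPM with Soshiho-tang. The readthrough gene INO80B-WBP1, named after its values were seen, was at 4.96, 4.03 and 4.08 CPM with Yijin-tang and at 0 in both Soshiho-tang libraries. In the vehicle it was at 0, 1.73 and 0 CPM, so it varied within a group as well. It overlaps the genes INO80B and WBP1, its reads can be split among them, and its edgeR adjusted p was 1 in the fit of 52 libraries. With only the groups compared edgeR did call it (adjusted p = 0.000142), as it did without the filter on low counts (adjusted p = 2.32e-46). Without Yijin-tang replicate 3 the same 4 AHR targets were called and no other gene.

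**Figure D3:**
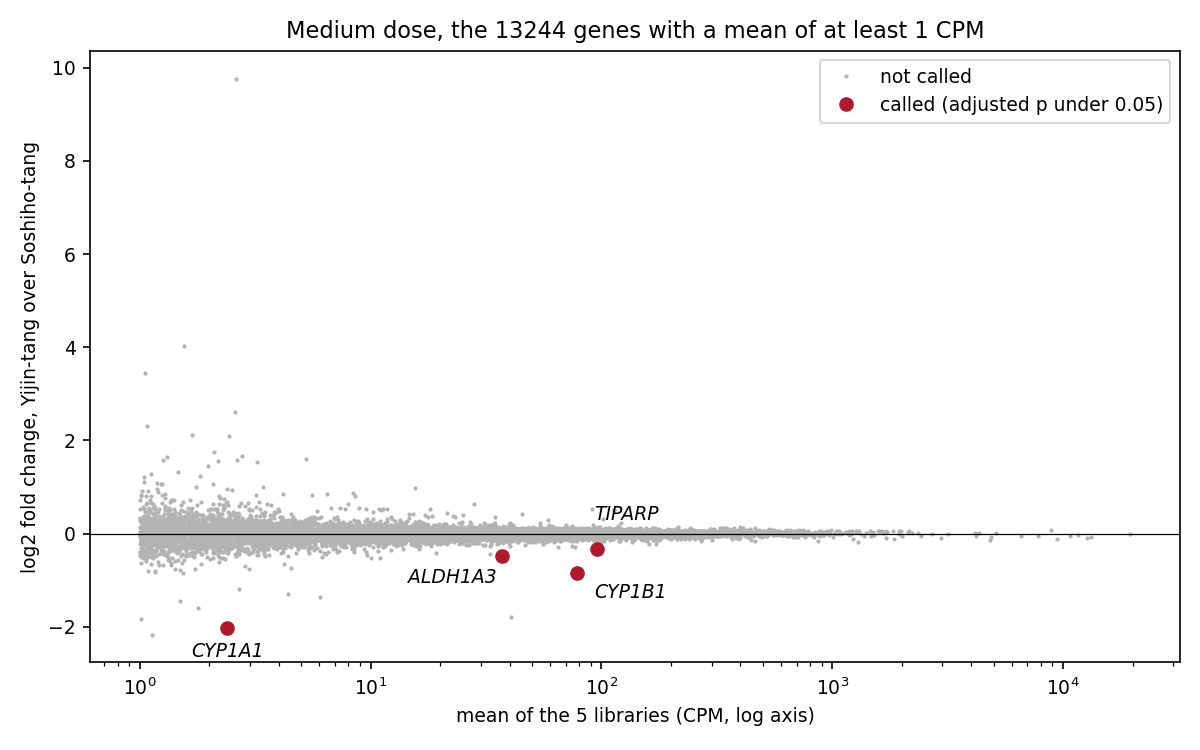
Log2 fold change of Yijin-tang over Soshiho-tang at medium dose against the mean level (CPM, log axis) for 13244 genes whose mean reached 1 CPM; red points are the 4 called genes. All 4 lie below 0, and among them CYP1A1 lies farthest down and at the lowest level.

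No other gene list of the 35 had a called member. Outside the AHR targets the lists held 645 tested genes, of which 0 were called by edgeR or DESeq2, 25 had an unadjusted p under 0.05 with Yijin-tang higher and 15 lower, and 632 had estimates within 1.5-fold. Some lists leaned one way without passing. In the list for NF-kB and its chemokines, with 22 tested genes, 5 had an unadjusted p under 0.05, all higher with Yijin-tang (2.46% of all genes), and in 5 the Yijin-tang libraries lay above the Soshiho-tang libraries (10.7% of all genes). The neutrophil chemokine gene CXCL1 was at 14.01, 14.33 and 11.69 against 9.56 and 9.05 CPM (0.52 ± 0.14, adjusted p = 0.661). CXCL8 gave 0.25 ± 0.10, CXCL3 0.53 ± 0.21 and CCL20, which draws in dendritic and T cells, 0.86 ± 0.35, each with an adjusted p of 1. PI3, the gene of the elastase inhibitor elafin and a member of the innate defence list, was at 16.1, 17.8 and 14.8 against 13.6 and 10.8 CPM (0.42 ± 0.12, adjusted p = 0.675). The median of the NF-kB list was 0.11. Its most abundant members were close: TNFAIP2 (-0.06 ± 0.05), ENSG00000112096, which is the mitochondrial superoxide dismutase gene SOD2 in GENCODE 29 (0.05 ± 0.05), NFKB1, a subunit of the factor itself (0.05 ± 0.04), and NFKBIZ (0.02 ± 0.15).

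Immediate early and MAPK feedback genes, which respond within minutes to growth factors, lay the other way, also without a call. In 10 of 27 the Yijin-tang libraries lay below the Soshiho-tang libraries, in 2 above (10.4% and 10.7% of all genes), and the median was -0.07. EGR1 was at 27.45, 27.45 and 31.25 against 39.2 and 38.9 CPM (-0.45 ± 0.13, adjusted p = 0.688) and FOS at 14.01, 14.97 and 15.04 against 17.97 and 18.96 CPM (-0.34 ± 0.12, adjusted p = 0.966). Of the 27, 4 had an unadjusted p under 0.05, all lower (1.94% of all genes). In the list of EGFR ligands, EREG, the gene of epiregulin, was at 81.0, 85.6 and 87.4 against 102.2 and 107.3 CPM.

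Replication and interferon genes lay slightly higher with Yijin-tang, again without a call. Of 31 genes of DNA replication and S phase the libraries of Yijin-tang were above in 14 and below in 2 (10.7% and 10.4% of all genes), with 4 higher at an unadjusted p under 0.05 (2.46%) and a median of 0.05. The cyclin E gene CCNE1 was at 22.24, 22.39 and 22.27 against 20.2 and 18.4 CPM (0.21 ± 0.07, adjusted p = 0.919). In the interferon list 11 of 40 were above and 1 below (again against 10.7% and 10.4%), 4 were higher at an unadjusted p under 0.05 (2.46%), and the median of 0.09 was 0.15 without Soshiho-tang replicate 2 and 0.03 without its replicate 3. The antiviral gene OAS3 gave 0.13 ± 0.08 and B2M, of antigen presentation, 0.02 ± 0.07.

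Antioxidant, sterol and stress genes held no call between the decoctions at this dose. Of 32 targets of NRF2, the transcription factor of the antioxidant response, 0 were called and the median was -0.01. An unadjusted p under 0.05 was found for 4 of them (2 each way), and for 4.41% of all genes. In 6 the Yijin-tang libraries lay below the Soshiho-tang libraries and in 3 above (10.4% and 10.7% of all genes). The cystine carrier gene SLC7A11 gave -0.11 ± 0.09, the heme oxygenase gene HMOX1 -0.09 ± 0.10 and GCLM, a subunit of the enzyme that starts glutathione synthesis, -0.15 ± 0.07. KEAP1, which holds NRF2 in check, gave 0.15 ± 0.05 (adjusted p = 0.871). The ferritin genes FTH1 (-0.06 ± 0.08) and FTL (-0.05 ± 0.08), TKT of the pentose phosphate pathway (0.04 ± 0.05) and the export pump gene ABCC3 (-0.05 ± 0.05) did not pass either. Of 26 genes of cholesterol synthesis and uptake 0 were called and 1 had an unadjusted p under 0.05, with estimates of -0.11 to 0.17. In 5 of them the Yijin-tang libraries lay above the Soshiho-tang libraries and in 0 below. The reductase DHCR7 and the squalene epoxidase SQLE were at 0.01 ± 0.05 and -0.02 ± 0.03, and SREBF2, the regulator of the pathway, at -0.02 ± 0.05. Of 29 genes of ATF4 and the integrated stress response, 0 were called, 0 had an unadjusted p under 0.05, and for 26 the whole 95% interval lay within 1.5-fold. ATF4 itself gave 0.04 ± 0.07, the glutamine carrier gene SLC1A5 -0.04 ± 0.05 and SHMT2, of mitochondrial serine metabolism, 0.03 ± 0.05.

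**Figure D4:**
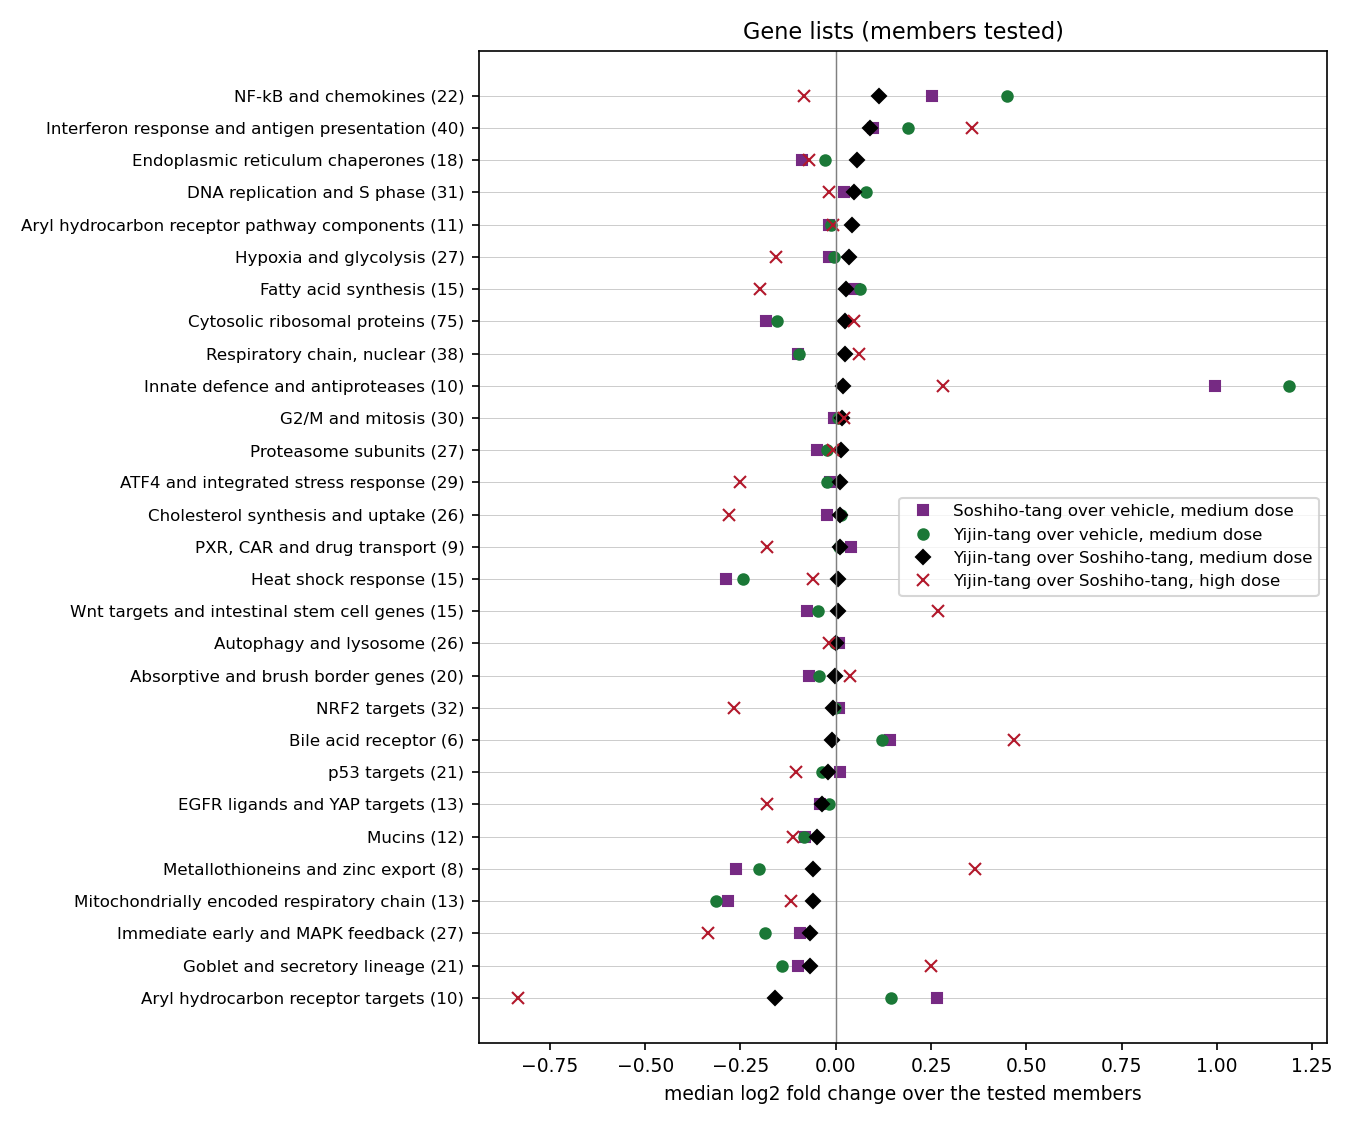
Median log2 fold change over the tested members of each gene list other than the cell type markers (number tested in brackets) for 4 comparisons: each decoction over the vehicle and Yijin-tang over Soshiho-tang at medium dose, and Yijin-tang over Soshiho-tang at high dose. The black diamonds (decoctions compared at medium dose) stay near 0 for most lists and are lowest for AHR targets, at -0.16, and the red crosses (high dose) spread further, to -0.83 for AHR targets.

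Each decoction was also set against the vehicle. These comparisons share the 3 vehicle libraries, which form a library set of their own, so that decoction and library set cannot be told apart in them. Between Yijin-tang at medium dose and the vehicle 767 genes were called (4.43%), 404 higher (2.33%) and 363 lower (2.09%). For Soshiho-tang it was 294 (1.7%), 151 higher (0.871%) and 143 lower (0.825%). The counts rest on single libraries. For Yijin-tang, leaving out vehicle replicate 1 gave 1290 and vehicle replicate 3 gave 222, and leaving out its own replicates 1, 2 and 3 in turn gave 285, 378 and 432. For Soshiho-tang, leaving out vehicle replicate 1 gave 861 and vehicle replicate 3 gave 65, and its own replicates 2 and 3 gave 65 and 38. With all 54 libraries in the fit the counts were 71 and 40.

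AHR targets rose over the vehicle with both decoctions. With Yijin-tang 4 of 10 were called higher (2.33% of all genes) and with Soshiho-tang 5 of 10 (0.871%), the fifth being ALDH3A1 (0.32 ± 0.07, adjusted p = 0.00965). CYP1A1 rose by 1.06 ± 0.22 with Yijin-tang (adjusted p = 0.00747) and by 3.09 ± 0.18 with Soshiho-tang (adjusted p = 4.83e-16). CYP1B1 rose by 0.34 ± 0.05 and 1.19 ± 0.05, and ALDH1A3 by 0.40 ± 0.05 and 0.88 ± 0.06. The rise of TIPARP with Yijin-tang, 0.15 ± 0.05 (adjusted p = 0.0463), was called in 5 of 13 alternatives, while its rise of 0.48 ± 0.05 with Soshiho-tang was called in all 12. That of CYP1A1 with Yijin-tang was called in 9 of 13, with adjusted p up to 0.224. Among immediate early genes 9 of 27 fell with Yijin-tang (2.09% of all genes) and 2 of 27 with Soshiho-tang (0.825%), which were 4 and 0 with all 54 libraries. EGR1 fell by 0.70 with Yijin-tang (adjusted p = 0.00023) and was at -0.25 with Soshiho-tang (adjusted p = 0.346), and the direct test between the decoctions, given above, did not pass. In the NF-kB list 10 of 22 were called higher with Yijin-tang and 7 of 22 with Soshiho-tang, CXCL1 by 2.69 and 2.17, and with all 54 libraries 6 and 4. Of the receptor's components, RELB (0.27 ± 0.08, adjusted p = 0.0378) and NCOA2 (0.14 ± 0.04, adjusted p = 0.0457) were called higher with Yijin-tang, and 0 of 11 with all 54 libraries.

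At high dose many more genes were called between the decoctions. There were 855 (4.93%), 338 higher (1.95%) and 517 lower (2.98%) with Yijin-tang, in a fit where Soshiho-tang had 1 library, which is assumed to vary like the other groups. With all 54 libraries, which add its other library and replicate 2 of Yijin-tang at low dose, 629 were called. Of the 10 AHR targets 8 were lower, and 7 with all 54 libraries. CYP1A1 was lower by 5.65 ± 0.12 log2 units there and CYP1B1 by 2.16 ± 0.06. The antioxidant and sterol lists, with 0 calls at medium dose, had 18 of 32 and 17 of 26 members lower with Yijin-tang, and 17 and 15 with all 54 libraries.

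The difference between the contrasts at high and medium dose was tested as an interaction. It was called for 296 genes (1.71%), 116 higher (0.669%) and 180 lower (1.04%), and for 145 without Soshiho-tang medium dose replicate 3 and 131 with all 54 libraries. All 4 genes called at medium dose were among them in each of 15 alternatives: CYP1A1 at -3.62 ± 0.23 (adjusted p = 9.73e-15), CYP1B1 at -1.31 ± 0.08, ALDH1A3 at -1.01 ± 0.09 and TIPARP at -0.64 ± 0.08. Of the AHR targets 8 of 10 were called in this test, all lower, of NRF2 targets 11 of 32 and of cholesterol genes 12 of 26. With all 54 libraries these counts were 5, 7 and 5. By the rule for named genes the others were ADH1C, an alcohol dehydrogenase (3.82 ± 0.78), ASB14 (2.71 ± 0.69) and RASSF9 (2.43 ± 0.58) among the higher and CHST11, a chondroitin sulfotransferase (-1.19 ± 0.28), among the lower. All 4 of these had low counts, and ADH1C was at 0.0469 CPM in the Soshiho-tang high dose library and at 0.713 and 1.17 CPM in those at medium dose.

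Genes called at high dose mostly had the same sign at medium dose, with small differences. Of the 338 higher with Yijin-tang 71.3% had the same sign at medium dose, where 50.4% of all genes did, and their median was 0.04, against 0.45 at high dose. Of the 517 lower, 73.9% did, against 49.4% of all genes, with medians of -0.05 and -0.35. Each of the 2 percentages left its binomial 95% interval in 2 alternatives and stayed within it in 5. Over the 10594 genes of at least 5 CPM the contrasts at high and medium dose had a Pearson r of 0.273 and a Spearman rho of 0.227. These are across genes, which are not independent, and the contrasts share no library.

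**Figure D5:**
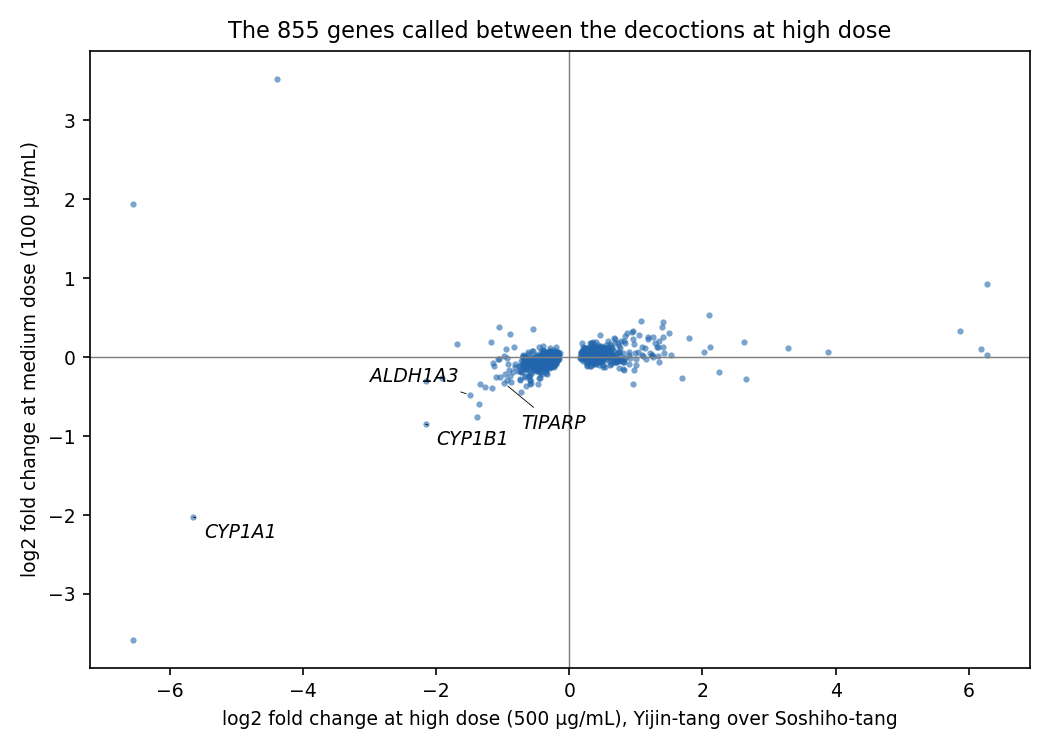
Log2 fold change of Yijin-tang over Soshiho-tang at medium dose against that at high dose for the 855 genes called at high dose; each point is a gene. CYP1A1, at -5.65 and -2.02, and CYP1B1, at -2.16 and -0.85, lie apart from the band near 0 on the medium dose axis, and the other points far from it have low counts.

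At low dose, 20 µg/mL, CYP1B1 was the only gene called (0.00577%). It was at 54.1 and 50.4 CPM with Yijin-tang and 66.8 and 68.8 CPM with Soshiho-tang, lower by 0.37 ± 0.06 on the log2 scale (adjusted p = 0.00111). The call was lost without Yijin-tang low dose replicate 3 or Soshiho-tang low dose replicate 3, each of which left 0 calls by edgeR (621 and 712 genes at an unadjusted p under 0.05), and in the fit restricted to the groups compared. Its difference was smaller than at medium dose by 0.47 ± 0.08 (adjusted p = 0.00334), the only call of that interaction test, and this was lost without Yijin-tang low dose replicate 1 or Soshiho-tang low dose replicate 2 (612 and 515 genes at an unadjusted p under 0.05), with all 54 libraries and with only the groups compared. CYP1A1 (-0.78 ± 0.25), ALDH1A3 (-0.31 ± 0.07, adjusted p = 0.195) and TIPARP (-0.19 ± 0.06) had the same sign at low dose and did not pass. In order of dose the log2 difference of CYP1B1 was -0.37, -0.85 and -2.16.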

How the data were processed

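Messenger RNA of HT29 cells was sequenced with strand-specific libraries (the labels' protocols). RSEM 1.3.3, STAR 2.7.3a, Trim Galore 0.6.5, FastQC 0.11.9 and GRCh38 are named in the submitters' processing notes. The annotation release and the strand setting are not given in the sources used here. The authors deposited expected counts per gene, not normalized, for 60675 Ensembl IDs and 60 libraries, and fractions in them split reads that match several genes. They were rounded to whole numbers. Symbols were found for 56558 IDs, and positions are from GENCODE release 29.

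The filter filterByExpr in edgeR 4.0.16 kept 17330 genes, which were scaled by TMM and fitted in 1 quasi-likelihood model of 52 libraries in 19 groups, with group as the only term (R 4.3.3). Adjusted p under 0.05 was called. Errors are SE for log2 values, taken from the fold change and its F statistic, and SD for CPM. Members and lists (35 lists, 755 entries) were chosen with earlier results of these data known. Named genes were, per direction, the 12 largest called changes of at least 5 CPM without overlap of libraries, up to 4 called members of each list, up to 4 abundant members of 7 lists, and 3 each way for interactions. Some genes that this rule draws are not reported here. All other genes given with values were chosen after their values were seen. Counts for this comparison were also simulated from the fitted model, for 17330 genes. The 200 changed genes were drawn from those with a mean of at least 1 CPM. Of these, 60.7% of 1.25-fold, 79.3% of 1.5-fold and 91.3% of 2-fold changes were recovered, and 5.51% of calls were false. With 200 true changes the adjustment is more lenient than with the 4 calls of the real data, so these rates can overstate recovery here. Alternatives were DESeq2 1.42.0, RLE factors, no filter, all 54 libraries, only the groups compared, a replicate block, another filter (added after seeing the data) and each library left out.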

Additional observations from a re-analysis of the deposited data

Results flagged for a closer look

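For 24 named genes the difference between Yijin-tang and Soshiho-tang changed from medium to high dose by the interaction test of edgeR (adjusted p under 0.05), and each value here is the high dose contrast minus the medium dose contrast on the log2 scale. Among AHR targets it was -3.62 for CYP1A1, -1.31 for CYP1B1, -1.01 for ALDH1A3, -0.64 for TIPARP, -0.80 for ALDH3A1, -0.73 for AHRR, -0.27 for NQO1 and -0.33 for SLC7A5. AHRR, NQO1 and SLC7A5 were thus close to equal at medium dose and lower with Yijin-tang at high dose. With all 54 libraries in the fit these 3 were not called (adjusted p = 0.342, 0.331 and 0.711).

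Among antioxidant and sterol genes the change was -0.73 for HMOX1, -0.63 for SLC7A11, -0.33 for the transketolase gene TKT, -0.44 for SQLE and -0.38 for DHCR7. AKAP12, a scaffold of protein kinase A, changed by -0.90, and its contrast turned from 0.36 ± 0.08 (not called) to -0.54 ± 0.09. The adhesion receptor gene ADGRF1 changed by -0.86, the organic cation carrier gene SLC22A3 by -0.77, EREG by -0.57, FGF19, a hormone gene induced by bile acids, by -0.48 and CHST11 by -1.19. Changes upward were 3.82 for ADH1C, 2.71 for ASB14, 2.43 for RASSF9, 1.00 for the NADPH oxidase gene NOX1 and 0.42 for SESN1. The high dose side of Soshiho-tang is 1 library in this fit, and 18 of the 24 were also called with all 54 libraries. ADH1C was then at 1.93 and RASSF9 at 1.40 (adjusted p = 0.238).

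From medium to low dose 1 named gene changed, CYP1B1 by 0.47 (adjusted p = 0.00334), which had an adjusted p of 0.359 with all 54 libraries.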

How the results depend on the processing

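CYP1A1, CYP1B1 and ALDH1A3 were called between the decoctions at medium dose in all 12 alternatives, with log2 differences of -2.21 to -1.89, -0.87 to -0.82 and -0.52 to -0.45, and TIPARP in 11, at -0.34 to -0.33. The count of 4 was 3 with all 54 libraries and 144 without a filter on low counts (85 higher, 59 lower). Those 144 hold the 4, and all of them had been tested with the filter on. Among them were CXCL1, PI3, EREG, EGR1, FOS, FGF19, AKAP12, ADGRF1 and LRRN4. They also held many pseudogenes, readthrough genes and IDs without a symbol, such as ANXA2P2 and RPL13AP5, which were high only in Yijin-tang replicate 3. The smallest edgeR adjusted p in this setting, 2.59e-146, was that of the antisense transcript TUBA1B-AS1, which varied widely within Soshiho-tang. With only the groups compared it was 6. Leaving out single libraries gave 4 to 6 genes at medium dose, 648 to 1061 at high dose, 0 to 1 at low dose, 145 to 344 and 0 to 3 for the changes from medium to high and to low dose, and, against the vehicle, 222 to 1290 for Yijin-tang and 38 to 861 for Soshiho-tang.

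With all 54 libraries the counts were 71 and 40 against the vehicle for Yijin-tang and Soshiho-tang, 6 at low dose, 131 for the change to high dose and 0 for that to low dose (2310 at an unadjusted p under 0.05). Without the filter they were 662 for Soshiho-tang against the vehicle, 88 at low dose and 123 for the change to low dose. With only the groups compared they were 64 and 18 against the vehicle, 283 at high dose, 5 at low dose, 113 for the change to high dose and 0 for that to low dose (547 at an unadjusted p under 0.05). DESeq2 called 2 for the change to low dose. The causes were not tested.

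The replicate numbers are shared by the groups, but the labels do not say that a number marks a batch, and the deviations of same-numbered libraries correlated at 0.131 and 0.150 in only 2 pairs. With the replicate number as a block 5 genes were called at medium dose, LRRN4 being added (-0.91, adjusted p = 0.0287), 578 and 282 against the vehicle (217 of the 767 and 74 of the 294 genes kept their call), 918 at high dose, 1 at low dose, 351 for the change to high dose and 1 for that to low dose. Of 614 values of named genes called in neither setting, 25 changed sign between settings. Depth limits the low genes most: 68.6% of all 17330 intervals lay within 1.5-fold, against 98.8% at 5 CPM or more.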

Other observations

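Next after the 4 called genes, with an edgeR adjusted p of 0.193 each, came AKAP12, SESN1 and ASAH1 among the higher and ADGRF1 among the lower, named after their values were seen. AKAP12 was at 20.0, 18.5 and 19.8 CPM with Yijin-tang and at 15.1 and 15.3 CPM with Soshiho-tang, where the vehicle libraries were at 13.96, 15.94 and 14.99 CPM, so the Soshiho-tang libraries lay within the range of the vehicle and the Yijin-tang libraries above it. ADGRF1 was at 45.7, 42.1 and 42.5 against 50.8 and 52.6 CPM, and its vehicle libraries at 33.8, 32.3 and 31.6 CPM were below both. The stress-responsive sestrin gene SESN1 (0.25 ± 0.06) and the lysosomal ceramidase gene ASAH1 (0.22 ± 0.05) did not overlap between the groups either. LRRN4, at 2.75, 2.18 and 1.99 against 4.47 and 3.47 CPM, had an adjusted p of 0.351. None of the 5 passed the test of the 52 libraries.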
